A study of Mus musculus with 9 samples.

Results

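Hhip, the membrane-anchored inhibitor that binds Hedgehog ligands, was described together with 8 core genes of the Hedgehog pathway in cultured mouse myoblasts: Ptch1, Smo, Gli1, Gli2, Gli3, Boc, Cdon and Gas1. The 9 genes were taken by symbol from the 47729 genes counted, and Hhip was picked because its RNA was far lower during differentiation, so its difference between days is given as a description without a test. Of the 9 genes, 7 were among the 13324 genes tested, which needed at least 1 CPM in at least 3 libraries (CPM is the count scaled to a library of 1000000). Gli1 and Gli2 did not reach that level. The cells were C2C12, an established mouse myoblast line which stops dividing and forms multinucleate myotubes once the medium is switched. A control population that had received a guide RNA without a genomic target (WT) was compared with a population in which Per1 (Per1KO) and one in which Per2 (Per2KO) was disrupted with CRISPR-Cas9. Both are repressors of the circadian clock. Each population was sampled undifferentiated in serum-rich growth medium on day 0 and in horse serum on days 3 and 5, as 1 library each, so 9 libraries were made in all. Whether a population was 1 clone or a pool is not given in the sources used here.

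Hedgehog ligands are secreted proteins that relieve the receptor Ptch1 of its hold on the transducer Smo, which then acts in the primary cilium, a single hair-like projection of the cell. Active Smo stops the processing of the Gli transcription factors into repressors, and Hhip, Ptch1 and Gli1 are themselves induced, so that the first 2 act as negative feedback. Boc, Cdon and Gas1 are surface proteins that bind the ligand beside Ptch1. In the embryo the pathway helps to start the muscle programme in the somites, and Cdon and Boc are also known as cell contact proteins that favour myoblast differentiation.

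The libraries held 5020385 to 6773320 counts in WT and 41997763 to 48051824 in the knockouts, a mean ratio of 7.82, and only the WT titles carry a lane suffix. Depth, lane and genotype therefore cannot be told apart where a knockout is set against WT. Per1 differed from WT by -0.34 ± 0.22 (log2, SE) in Per1KO (adjusted p = 0.310) and -0.40 ± 0.22 in Per2KO (adjusted p = 0.232). Per2 differed by -0.62 ± 0.24 in Per1KO (adjusted p = 0.111) and -1.02 ± 0.24 in Per2KO (adjusted p = 0.0230). Set directly against each other, the 2 knockouts differed by 0.07 ± 0.21 in Per1 and 0.41 ± 0.23 in Per2 (adjusted p = 1.00 for both). Between the knockouts, edgeR called 0 of 13324 genes, with 88 at an unadjusted p under 0.05 and 1 gene called by DESeq2, so the names are those of the labels. The labels give whole muscle as tissue but describe cell culture. Summed markers of endothelial cells (0.973 to 3.75 CPM), immune cells (0.697 to 2.86), adipocytes (0.0621 to 0.880) and Schwann cells (0.547 to 1.71) were low in all 9 libraries, against 1456 to 21279 CPM for 10 myogenic markers. Adipoq, Lep, Cidec, Adgre1 and Cd3e were at 0 in all of them. Summed osteoblast markers were at 30.6 to 66.5 CPM, and of these only Runx2 was tested, which fell on both days. Summed fibro-adipogenic markers were at 162 to 455 CPM on day 0 and at 982 to 1315 CPM on days 3 and 5.

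The promoters of the pathway's own feedback genes are shown first, because Hhip and Ptch1 are both textbook Gli targets and yet were lower by very different amounts on days 3 and 5. Below are the 250 bases before the RefSeq start sites (GRCm38.p6) on the minus strand of each gene, at chr8:80058009-80058258 for Hhip and chr13:63565736-63565985 for Ptch1, with CpG dinucleotides in capitals.
Hhip: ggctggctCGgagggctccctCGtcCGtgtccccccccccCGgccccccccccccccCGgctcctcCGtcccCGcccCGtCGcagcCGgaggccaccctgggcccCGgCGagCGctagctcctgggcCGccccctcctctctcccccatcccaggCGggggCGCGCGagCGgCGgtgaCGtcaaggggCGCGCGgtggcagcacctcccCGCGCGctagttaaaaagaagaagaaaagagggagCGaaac
Ptch1: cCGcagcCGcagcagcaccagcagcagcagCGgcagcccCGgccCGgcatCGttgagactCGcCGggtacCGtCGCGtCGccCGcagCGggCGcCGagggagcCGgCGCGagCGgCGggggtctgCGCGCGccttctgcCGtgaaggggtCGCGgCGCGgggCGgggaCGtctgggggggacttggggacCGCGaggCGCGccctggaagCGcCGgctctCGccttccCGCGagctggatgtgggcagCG
Both windows are rich in CpG, the dinucleotide that vertebrate promoters of CpG island type keep. Hhip's holds 28 at a GC content of 76.0%, and Ptch1's holds 41 at 78.4%, where the median over all 32851 RefSeq windows of this length was 6 at 52.4%. Windows were found for 7 of the 9 genes, all but Gli1 and Boc. The other windows ranged down to Cdon's 1 CpG at 42.8% GC. The windows of Ptch1, Cdon and Gli3 lie inside the GENCODE genes, whose outermost starts differ from RefSeq's. A search on both strands for the Gli motif GACCACCCA, the E-box CAGCTG that myogenic factors can bind and the E-box CACGTG that clock factors can bind found 0 matches in all 7. Among all windows, 0.225%, 13.0% and 6.02% held the respective motif, none of which contains another. This says only that these letters are not in these windows.

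Hhip (ENSMUSG00000064325, chromosome 8, 79965851 to 80058006, minus strand of GRCm38) was abundant in growing cells and low in differentiating ones, in all 3 populations. On day 0 its level was 48.0 CPM in WT (340 counts), 49.6 in Per1KO (2444 counts) and 46.9 in Per2KO (2381 counts), on the TMM scale (edgeR's correction for library composition), as all CPM here. The 3 growing populations had overlapping 95% counting intervals. On day 3 the level was 2.74 CPM in WT, 4.60 in Per1KO and 4.74 in Per2KO. On day 5 it was 3.08, 1.95 and 1.68 CPM in the same order. The 6 differentiating libraries lay far below the 3 growing ones, with no overlap. Relative to day 0, the level was 17.5-fold lower on day 3 in WT (10.5 to 31.7, exact binomial 95% interval), 10.8-fold lower in Per1KO (9.40 to 12.4) and 9.89-fold lower in Per2KO (8.63 to 11.4). On day 5 it was 15.6-fold lower in WT (9.17 to 28.8), 25.5-fold in Per1KO (20.4 to 32.2) and 27.9-fold in Per2KO (22.0 to 36.0). All these intervals cover counting error only, since with 1 library per genotype and day the spread between cultures was not measured. The reads carry no molecular identifiers and need not be separate molecules, so even counting error may be understated. The combined estimate from a model with genotype and day as additive terms was -3.49 (log2) on day 3 and -4.61 on day 5. In bulk RNA, fewer cells of a type and less RNA per cell cannot be told apart.

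After day 3, Hhip continued to lower levels in the knockouts, where the day 3 intervals (4.01 to 5.24 and 4.15 to 5.40 CPM) lay above those of day 5 (1.55 to 2.42 and 1.31 to 2.13). In WT the interval was 1.53 to 4.51 CPM on day 3 and 1.68 to 5.17 on day 5, from 15 and 14 counts, so the order of the 2 days could not be detected at this depth. Because Hhip was chosen for its difference between days and not between genotypes, the genotype contrasts could be tested. Hhip differed from WT by 0.08 ± 0.25 (log2, SE) in Per1KO (adjusted p = 0.852) and by 0.01 ± 0.25 in Per2KO (adjusted p = 0.986), by edgeR's quasi-likelihood test with Benjamini-Hochberg adjustment, as for every adjusted p given. The response to differentiation, fitted as an interaction of either knockout with days 3 and 5, differed by 0.13 ± 0.44. Hhip was picked on this response, so the value is a description and not a test. That estimate was -0.77 without the WT day 3 library and 0.76 without the WT day 5 library. The day 0 ratio to WT was 1.03 in Per1KO (0.921 to 1.16) and 0.976 in Per2KO (0.871 to 1.10). Exons of Hhip share positions with Gm27820 on the opposite strand, and whether strand was used in counting is not given in the sources used here.

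**Figure D1:**
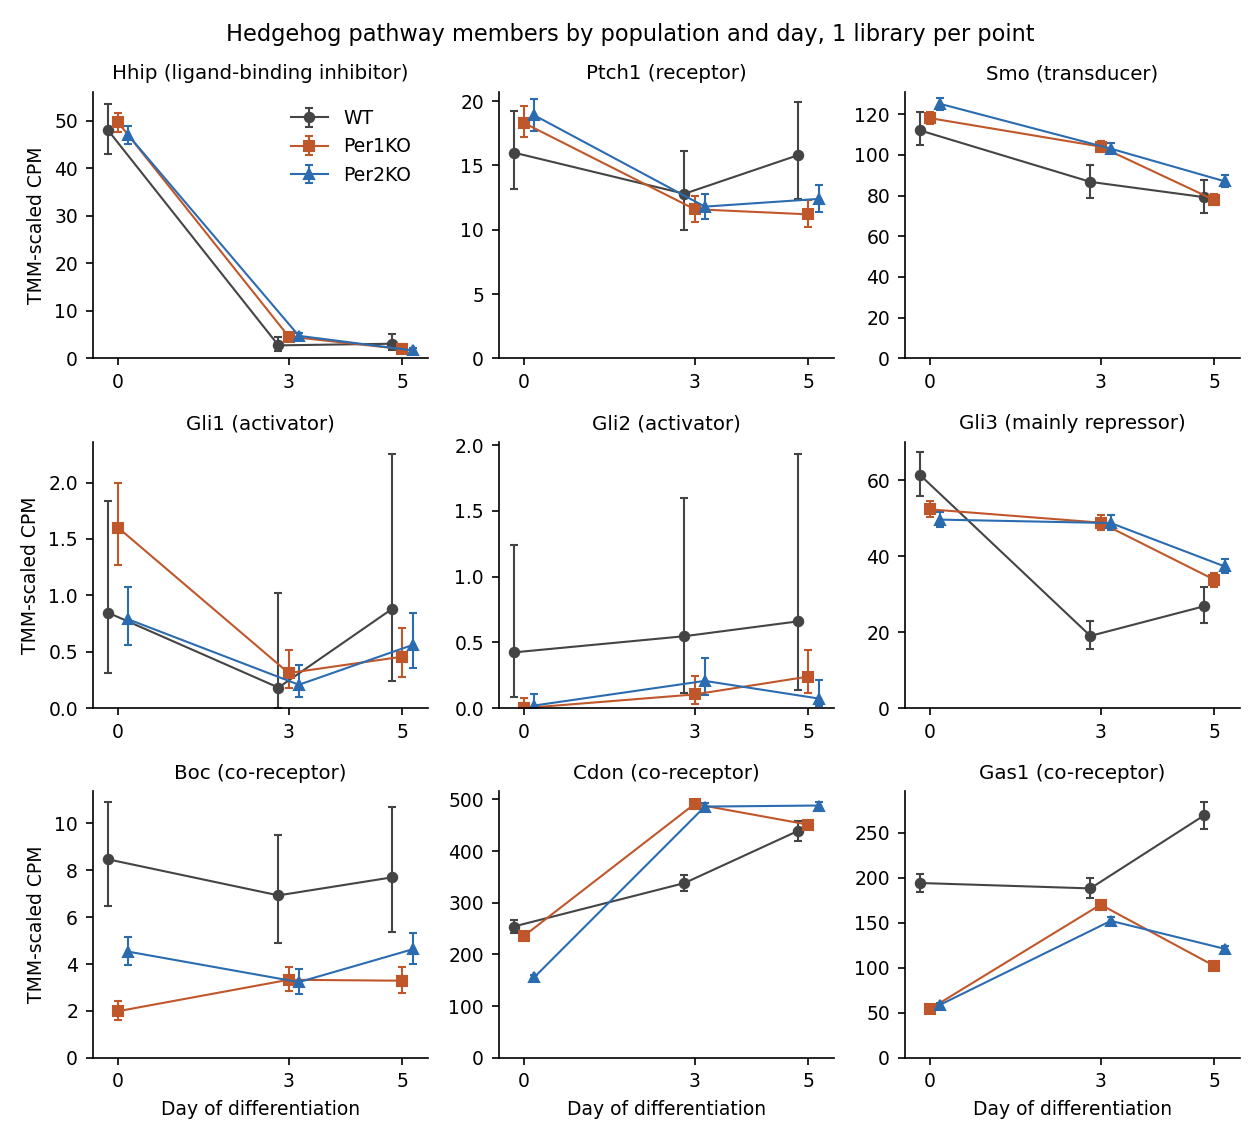
TMM-scaled CPM of each of the 9 genes (y axis, linear from 0) against day of differentiation (x axis), with 1 library per point and bars for exact 95% Poisson counting intervals. Hhip starts at 46.9 to 49.6 CPM in all 3 populations and lies at or below 4.74 CPM afterwards, Gli3 drops in WT to 19.0 CPM on day 3, and the WT points of Boc lie above all knockout points.

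Tests between days were made for 6 of the genes. On day 3 against day 0, 3 of the 6 passed the threshold (an adjusted p under 0.05): Cdon and Gas1 rose and Ptch1 fell. Of all 13324 genes, 35.0% passed it in this comparison, 18.1% higher and 16.9% lower. On day 5, 3 of the 6 passed as well, Cdon higher and Ptch1 and Smo lower, where 46.1% of all genes did, 23.2% higher and 22.9% lower. The members' median log2 difference was -0.14 at both times, beside -0.01 over all genes.

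Ptch1 (chromosome 13, 63508328 to 63573598, minus strand), the receptor that holds Smo inactive without ligand, differed less between days than Hhip. Its levels on days 0, 3 and 5 were 16.0, 12.8 and 15.8 CPM in WT, 18.3, 11.6 and 11.2 CPM in Per1KO and 18.9, 11.8 and 12.4 CPM in Per2KO. In each knockout the day 0 library was the highest, with an interval above those of the later days, while the WT intervals overlapped. The additive log2 difference from day 0 was -0.58 ± 0.16 on day 3 (adjusted p = 0.0267) and -0.48 ± 0.16 on day 5 (adjusted p = 0.0425). Both calls were lost when any 1 of the 6 knockout libraries was left out, with adjusted p from 0.0502 to 0.142 on day 3 and from 0.0771 to 0.238 on day 5. They were also lost with the knockouts thinned to WT depth (adjusted p = 0.0708 and 0.0730) and with only the compared days fitted (0.0599 and 0.102), and the day 5 call without the filter on low counts (0.0521). In the same samples, Ptch1 was 1.52-fold lower on day 5 than on day 0 in Per2KO (1.37 to 1.70), where Hhip was 27.9-fold lower. Against WT, Ptch1 differed by -0.14 ± 0.17 in Per1KO (adjusted p = 0.589) and -0.07 ± 0.17 in Per2KO (adjusted p = 0.802).

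Smo (chromosome 6, 29735503 to 29761365, plus strand), the seven-pass membrane protein that carries the signal inward, was lower on day 5 in every population. It was at 112, 86.7 and 79.2 CPM on days 0, 3 and 5 in WT, at 118, 104 and 77.8 CPM in Per1KO and at 125, 103 and 87.0 CPM in Per2KO. The 3 day 0 libraries were the highest and the 3 day 5 libraries, together with WT on day 3, the lowest. On day 5 Smo was lower by -0.54 ± 0.11 (log2; adjusted p = 0.00415), a call kept without any 1 of the 9 libraries. The day 3 difference of -0.27 ± 0.10 did not pass (adjusted p = 0.0780), except by DESeq2's Wald test (adjusted p = 0.0374) and without the 3 WT libraries (-0.23, adjusted p = 0.0471). Against WT, Smo differed by 0.11 ± 0.11 in Per1KO (adjusted p = 0.518) and 0.18 ± 0.11 in Per2KO (adjusted p = 0.262).

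**Figure D2:**
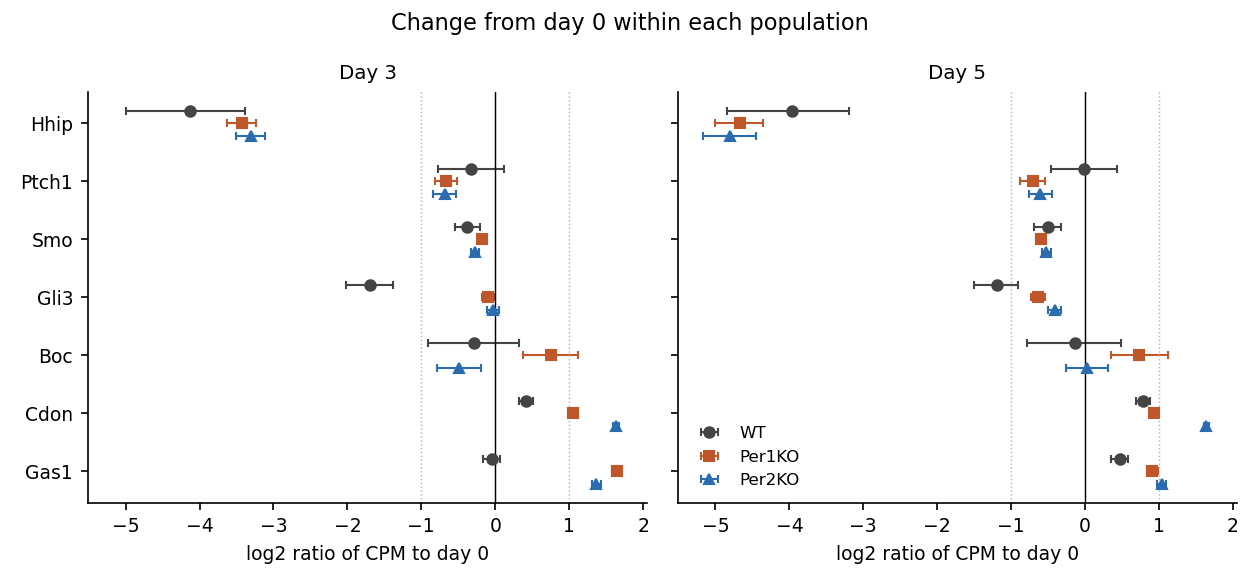
log2 ratio of the CPM on day 3 (left) and day 5 (right) to day 0 within each population, for the 7 tested genes, with exact binomial 95% counting intervals and dotted lines at 2-fold. Hhip, which was picked for this fall, lies far left of all others in every population. Gli3 is past 2-fold lower in WT but not in the knockouts, and Gas1 on day 3 is past 2-fold higher in both knockouts and near 0 in WT.

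Of the Gli transcription factors, Gli3 had nearly all the counts. Gli3 is mainly a repressor when no ligand is present, whereas Gli2 is the main activator and Gli1 an activator that is itself a target. Gli3 (chromosome 13, 15463235 to 15730026, plus strand) was at 61.4 CPM on day 0, 19.0 on day 3 and 26.8 on day 5 in WT. In Per1KO it was at 52.3, 48.8 and 33.8 CPM and in Per2KO at 49.6, 48.7 and 37.3 CPM. The WT library was above both knockouts on day 0 and below both on days 3 and 5. Exons of Gli3 share positions with Gm6556 on the opposite strand, and the use of strand in counting is not given. Within WT, Gli3 was 3.24-fold lower on day 3 (2.61 to 4.05) and 2.29-fold lower on day 5 (1.87 to 2.82). In the knockouts it was 1.07-fold (1.01 to 1.13) and 1.02-fold (0.963 to 1.08) lower on day 3, and 1.55-fold (1.45 to 1.65) and 1.33-fold (1.25 to 1.42) lower on day 5, Per1KO first. Leaving aside Hhip, which was chosen for this difference, Gli3 was the 1 of 6 genes past 2-fold in WT at each time, where 17.9% of all genes were on day 3 and 23.9% on day 5. In the knockouts, Cdon and Gas1 were the 2 of 6 past 2-fold on day 3 in both and on day 5 in Per2KO, and 0 of 6 were on day 5 in Per1KO. The share over all genes was 20.5% on day 3 and 26.5% on day 5 in Per1KO, and 20.2% and 24.9% in Per2KO.

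The Gli3 contrasts did not pass in edgeR's test of the deposited counts over all 9 libraries. The day 3 difference was -0.54 ± 0.29 (adjusted p = 0.187; -0.76 and 0.0497 with the knockouts thinned to WT depth) and the day 5 difference -0.77 ± 0.29 (adjusted p = 0.0612), which passed without the WT day 3 library (-0.72, adjusted p = 0.0105) and by DESeq2's Wald test (adjusted p = 0.0237). The day 5 difference also passed after thinning (-0.82, adjusted p = 0.0274), with only the compared days fitted (-0.73, adjusted p = 0.0303) and without the 3 WT libraries (-0.52, adjusted p = 0.00308). Against WT, Gli3 differed by 0.41 ± 0.30 in Per1KO (adjusted p = 0.367) and 0.43 ± 0.30 in Per2KO (adjusted p = 0.335). Without the WT day 0 library these were 0.86 (adjusted p = 0.0324) and 0.88 (adjusted p = 0.0293). The difference in response between the knockouts and WT was 1.14 ± 0.34 (adjusted p = 0.103), and 1.63 without the WT day 5 library (adjusted p = 0.00820). DESeq2's Wald test gave 1.11 for the same term (adjusted p = 0.0343). On day 3 alone, both knockouts were 2.57-fold above WT (2.11 to 3.16 for each).

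Gli1 (chromosome 10, 127329882 to 127341974, minus strand), often used as the readout of an active pathway, had few counts. It had 6, 1 and 4 counts on days 0, 3 and 5 in WT, 79, 15 and 19 in Per1KO and 40, 10 and 23 in Per2KO. Its highest level was 1.60 CPM, in Per1KO on day 0. In both knockouts the day 0 count gave a level above that of day 3: 1.60 against 0.311 CPM in Per1KO and 0.787 against 0.207 in Per2KO, with intervals apart. On day 5 the level was 0.456 CPM in Per1KO, with an interval still below that of day 0. In Per2KO it was 0.560 CPM (0.355 to 0.841), which overlapped the day 0 interval (0.563 to 1.07). The WT intervals overlapped, at 0.847, 0.182 and 0.880 CPM on days 0, 3 and 5. Exons of Gli1 share positions with Arhgap9 and Gm47200 on the opposite strand, so its few reads are uncertain without strand. Gli2 (chromosome 1, 118834132 to 119053619, minus strand) had 0 to 10 counts per library and at most 0.660 CPM. Each WT library held 3 counts of it, the number that a true level could still have left at 0. Neither gene was tested.

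The co-receptors did not share 1 pattern. Cdon (chromosome 9, 35421128 to 35507652, plus strand), an immunoglobulin-family co-receptor and promyogenic surface protein, rose with differentiation. Its levels on days 0, 3 and 5 were 254, 338 and 439 CPM in WT, 236, 491 and 451 CPM in Per1KO and 156, 486 and 488 CPM in Per2KO. All 6 differentiating libraries were above the 3 growing ones. The additive difference was 1.03 ± 0.22 on day 3 (log2; adjusted p = 0.00992) and 1.10 ± 0.22 on day 5 (adjusted p = 0.00482). The day 5 call held without any 1 library, and the day 3 call was lost without Per1KO day 0 (adjusted p = 0.0534) or Per2KO day 3 (adjusted p = 0.0554). On day 0, Cdon was 1.62-fold lower than WT in Per2KO (1.54 to 1.71) and 1.07-fold lower in Per1KO (1.02 to 1.13), and over the 3 days it differed from WT by 0.14 ± 0.22 in Per1KO (adjusted p = 0.679) and 0.00 ± 0.22 in Per2KO (adjusted p = 0.994).

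Boc (chromosome 16, 44485049 to 44558897, minus strand), the close relative of Cdon, was lower in both knockouts and did not pass between days. It was at 8.47, 6.93 and 7.70 CPM on days 0, 3 and 5 in WT, from 60, 38 and 35 counts. In Per1KO it was at 1.99, 3.33 and 3.29 CPM and in Per2KO at 4.53, 3.23 and 4.63 CPM. All 6 knockout libraries were below all 3 WT libraries. The log2 difference from WT was -1.44 ± 0.27 in Per1KO (adjusted p = 0.00927), lower on 3 of 3 days. This call was kept without any 1 of the 9 libraries, with adjusted p up to 0.0435. In Per2KO the difference was -0.91 ± 0.27 (adjusted p = 0.0467), lower on 3 of 3 days, and was no longer called without any 1 WT library, any 1 Per2KO library or Per1KO day 5 (adjusted p 0.0618 to 0.201). It was also lost without the filter on low counts (adjusted p = 0.0574), after thinning to WT depth (0.0666), with only these genotypes fitted (0.0655) and with protein-coding genes only (0.0670). Between days, Boc differed by -0.01 ± 0.26 on day 3 (adjusted p = 0.981) and 0.20 ± 0.26 on day 5 (adjusted p = 0.550).

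Gas1 (chromosome 13, 60174405 to 60177365, minus strand), a lipid-anchored co-receptor first known from growth-arrested fibroblasts, differed most in growing cells. It was at 194, 188 and 269 CPM on days 0, 3 and 5 in WT, at 54.3, 170 and 102 CPM in Per1KO and at 59.0, 152 and 121 CPM in Per2KO. Every WT library was above every knockout library, and the gap was widest on day 0, where Gas1 was 3.56-fold (3.34 to 3.81) and 3.28-fold (3.08 to 3.50) lower in Per1KO and Per2KO. On day 3 the ratios were 1.10 (1.03 to 1.18) and 1.23 (1.15 to 1.32), and on day 5 they were 2.62 (2.46 to 2.80) and 2.22 (2.09 to 2.37). Over the 3 days Gas1 was lower by -1.16 ± 0.30 (log2) in Per1KO (adjusted p = 0.0317) and -1.11 ± 0.29 in Per2KO (adjusted p = 0.0348), on 3 of 3 days in both. The Per1KO call was lost without 1 of 6 libraries (WT day 0 or 5, Per1KO day 0 or 5, Per2KO day 3 or 5; adjusted p 0.0521 to 0.157). The Per2KO call was lost without 1 of 7 (WT day 0 or 5, Per1KO day 0 or 5, any Per2KO; adjusted p 0.0553 to 0.128). Both were lost without the filter on low counts (adjusted p = 0.0770 and 0.0852) and with only the compared genotypes fitted (0.0881 and 0.0646). Exons of Gas1 share positions with Gm48488 on the opposite strand.

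With differentiation, Gas1 differed by 1.65 and 1.37 (log2) on day 3 in Per1KO and Per2KO and by -0.04 in WT. The additive day 3 difference of 1.03 ± 0.30 passed (adjusted p = 0.0311) but no longer without WT day 5 or any 1 of the 6 knockout libraries (adjusted p 0.0504 to 0.161), without the filter on low counts (0.0645) or with only the compared days fitted (0.0876). The fibro-adipogenic markers Dcn and Dpt rose beside Gas1 and Cdon, by 5.10 ± 0.71 and 3.95 ± 0.54 on day 3 (adjusted p = 0.00172 and 0.00164) and by 5.25 ± 0.71 and 4.39 ± 0.55 on day 5 (adjusted p = 9.02e-04 and 6.11e-04), while the other 3 of 5 did not pass. Their part in the result was not tested. On day 5 the Gas1 difference was 0.78 ± 0.29 (adjusted p = 0.0592), and it passed without WT day 0 (1.15, adjusted p = 0.00712), WT day 3 (0.81, adjusted p = 0.00497) or Per1KO day 3 (0.78, adjusted p = 0.0425). It also passed by DESeq2's Wald test (adjusted p = 0.0225), with only the compared days fitted (adjusted p = 0.0136) and without the 3 WT libraries (0.98, adjusted p = 3.96e-04). The difference in response between the knockouts and WT was 1.00 ± 0.39 (adjusted p = 0.176), and 1.56 without WT day 5 (adjusted p = 0.00920).

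In each comparison of a knockout with WT, 2 of the 7 tested genes passed, Boc and Gas1, both lower. The share over all genes was 19.3% for Per1KO (9.26% higher, 10.1% lower) and 19.9% for Per2KO (9.31% higher, 10.6% lower), and both comparisons use the same WT libraries. The members' median difference was 0.08 in Per1KO and 0.00 in Per2KO, beside -0.02 and -0.01 over all genes. Of 5 fibro-adipogenic markers, Pdgfra, Dpt and Col15a1 were lower in both knockouts, as Boc and Gas1 were, and no marker of that list was at 0 in any library. Dcn and Ly6a did not pass in either, being lower than WT on day 0 and higher on days 3 and 5. The summed list was at 171 and 162 CPM in Per1KO and Per2KO on day 0 against 455 in WT, at 1131 and 1200 against 1052 on day 3, and at 1175 and 1315 against 982 on day 5. Proliferation markers were higher there, 3 of 7 in Per1KO (Ccna2, Cdk1 and Top2a) and 2 in Per2KO (Ccna2 and Top2a). Of 10 myogenic markers, Myog and Mymx were lower in both knockouts and Tnnt1 in Per2KO, and the rest did not pass. The Myog calls were lost in some fits without 1 library (adjusted p up to 0.150 and 0.0741). Summed myogenic markers were at 1784 and 1456 CPM in Per1KO and Per2KO on day 0 against 3290 in WT. They were at 9397 and 8760 against 20629 on day 3, and at 15114 and 12404 against 21279 on day 5. The part of these lists in the result was not tested. Between single libraries of the same day, the genes past 2-fold were Boc and Gas1 in Per1KO and Gas1 in Per2KO on days 0 and 5, and Gli3 and Boc in both knockouts on day 3. Of all genes, 16.5% were on day 0, 16.5% on day 3 and 18.6% on day 5 in Per1KO, and 17.2%, 17.6% and 18.8% in Per2KO. Between Per1KO and Per2KO, edgeR called 0 of the 7, with 0 at an unadjusted p under 0.05 and 0 by DESeq2, where 0% of all genes were called. Boc differed most, by -0.52 ± 0.25 (log2; adjusted p = 1.00). For the difference in response, edgeR called 0 of the 7, with 2 (Gli3 and Gas1) at an unadjusted p under 0.05 and 1 by DESeq2, where 4.95% of all genes passed. Hhip, picked on its response, is 1 of these 7 and its value there is a description only.

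**Figure D3:**
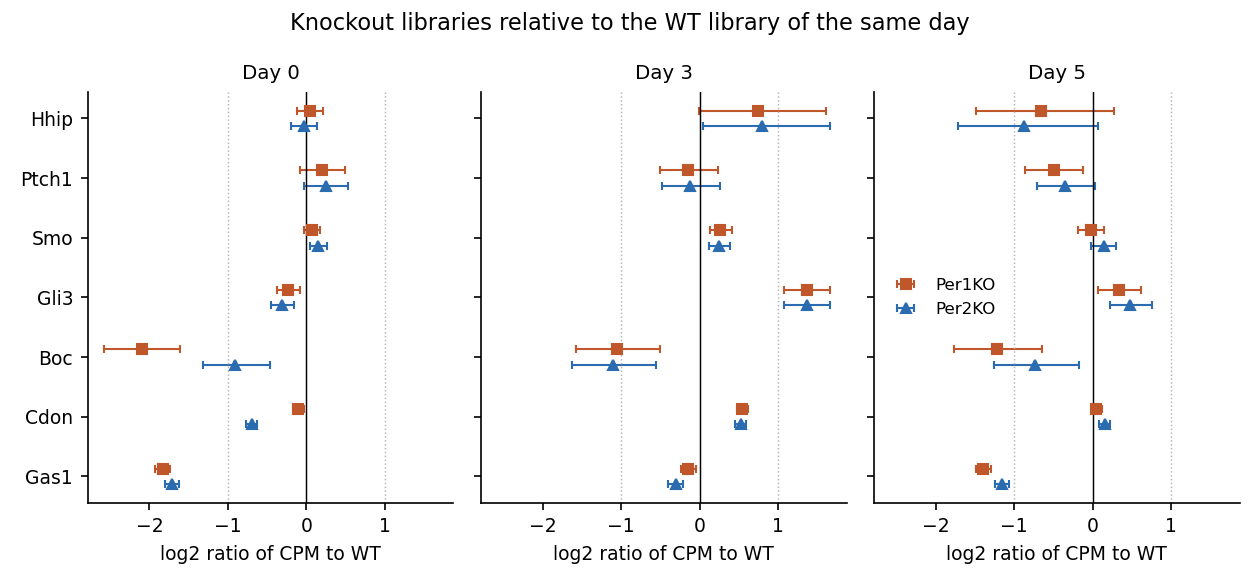
log2 ratio of the CPM in each knockout library to the WT library of the same day, for the 7 tested genes on days 0, 3 and 5, with exact binomial 95% counting intervals and dotted lines at 2-fold. Boc and Gas1 lie left of 0 on all 3 days, Gli3 lies right of the 2-fold line on day 3, and the Hhip intervals are widest on days 3 and 5, where WT had 15 and 14 counts.

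Per kilobase of exon, which allows levels of different genes to be set side by side, Cdon, Gas1 and Smo were the most abundant of the 9. Their median levels over the 9 libraries were 56.9, 51.5 and 18.4 CPM per kilobase, and these genes held ranks 1 to 3 in every library. All 3 changed places between libraries. Gli3 followed with 5.08, then Boc with 1.02, Ptch1 with 0.900 and Hhip with 0.506, and these last 3 also changed places. The length used was that of all annotated exons of a gene together. For Ptch1 this is 14185 bases, beside 10383 for its longest transcript, and for Boc 4451 by either measure. The order of Boc and Ptch1 therefore depends on the length used. Hhip ranked from 4 to 7. Its level was 5.16 to 5.46 CPM per kilobase on day 0, beside 5.18 to 6.41 for Gli3 there, and 0.185 to 0.522 afterwards. Gli1 at 0.112 and Gli2 at 0.0301 were last in every library.

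The ligands were at or near the floor. Shh had 0 counts in all 9 libraries, which allows up to 0.660 CPM in the shallowest WT library and 0.0731 in the shallowest knockout library (3 counts). Ihh had 0 counts in every WT library and 2 to 8 in each knockout library. Dhh had 1 or 2 counts in WT and 2 to 16 in the knockouts. The knockout libraries were deeper by a mean ratio of 7.82, so these raw counts cannot be compared between WT and the knockouts. Hhat, the enzyme that adds palmitate to the ligands, was at 9.74 to 22.4 CPM in the 3 WT libraries and at 2.31 to 4.20 CPM in the 6 knockout libraries, with no overlap. It was lower by -2.30 ± 0.26 (log2) in Per1KO (adjusted p = 8.98e-04) and -1.96 ± 0.26 in Per2KO (adjusted p = 0.00179), on 3 of 3 days in both, and stayed called without any 1 library. Disp1, which releases the ligand from the cell, was lower in Per2KO (-0.69 ± 0.19, adjusted p = 0.0379) and at -0.62 in Per1KO (adjusted p = 0.0563). The Disp1 call was lost without any 1 library other than WT day 3 or Per1KO day 3 (adjusted p up to 0.132). It was also lost with only the compared genotypes fitted (0.0799) and with protein-coding genes only (0.0574).

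The wider pathway was covered by 68 further genes in 6 lists, of which 52 were tested. On day 3, 6 rose and 7 fell, and on day 5, 11 rose and 8 fell, at median differences of -0.02 and 0.10. In Per1KO 0 were higher and 7 lower than WT, and in Per2KO 1 was higher and 9 lower, at medians of -0.07 and 0.00. These 13 and 19 genes are 25.0% and 36.5% of the 52, beside 35.0% and 46.1% of all genes, and the 7 and 10 are 13.5% and 19.2%, beside 19.3% and 19.9%. The lists were chosen with earlier results of these data known.

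Among 12 intracellular regulators of Gli processing, 6 rose and 1 fell on day 5, where 23.2% of all genes rose and 22.9% fell. Prkaca, the catalytic subunit of protein kinase A, which marks Gli proteins for processing into repressors, was at 179, 289 and 337 CPM on days 0, 3 and 5 in WT, 119, 217 and 260 CPM in Per1KO and 112, 212 and 239 CPM in Per2KO. It rose by 1.05 ± 0.11 (log2; adjusted p = 2.04e-04). Dyrk2, a kinase reported to promote degradation of Gli proteins, rose by 1.18 ± 0.14 (adjusted p = 4.38e-04), and both calls were kept without any 1 library. The other rises were less stable. Leaving out 1 library ended the calls of Stk36 and Btrc in 4 cases each and of Prkar1a and Spop in 2 each. Adjusted p then reached 0.115, 0.0672, 0.0614 and 0.0930 in that order. Stk36 was also lost after thinning to WT depth (0.183) and with only the compared days fitted (0.0521). Sin3a, a scaffold of histone deacetylase complexes, fell by 0.55 (adjusted p = 0.0104), a call lost without Per1KO day 0 (adjusted p = 0.0621) or Per1KO day 5 (adjusted p = 0.0786). In the knockouts, Prkaca was lower by -0.46 ± 0.11 in Per1KO (adjusted p = 0.0226) and -0.54 ± 0.11 in Per2KO (adjusted p = 0.0116), and Kif7, the ciliary kinesin of the pathway, by -0.55 ± 0.15 and -0.53 ± 0.15 (adjusted p = 0.0385 and 0.0414). Leaving out 1 library ended the Kif7 calls in 8 of 9 cases each, all but WT day 0 (adjusted p up to 0.205 and 0.202). Thinning to WT depth ended them too (-0.50 and -0.31, adjusted p = 0.150 and 0.358). So did dropping the filter on low counts (0.131 and 0.145), fitting only the compared genotypes (0.152 and 0.173) and testing protein-coding genes only (0.0601 and 0.0635). The Prkaca calls were lost without any 1 Per1KO library, Per2KO day 3 or Per2KO day 5 for Per1KO (up to 0.113) and without any 1 Per2KO library for Per2KO (up to 0.0722). Both were lost with only the compared genotypes fitted (0.119 and 0.0920), and that in Per1KO without the filter on low counts (0.0872).

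Of 12 genes of transport in the primary cilium, 2 rose and 4 fell on day 5, where 23.2% of all genes rose and 22.9% fell. Ttc21b, a subunit of the retrograde transport complex, fell from 41.8 to 17.2 CPM in WT, from 52.0 to 31.5 in Per1KO and from 43.4 to 30.8 in Per2KO between days 0 and 5 (-0.81 ± 0.16 log2, adjusted p = 0.00497). Tulp3, an adaptor that brings receptors into the cilium, fell by 0.75 (adjusted p = 0.00195), and both calls were kept without any 1 library. Bbs1, a subunit of the BBSome coat, rose by 0.68 ± 0.19 (adjusted p = 0.0185), and Ift172, a subunit of the anterograde transport complex, by 0.54 ± 0.18 (adjusted p = 0.0376). The Bbs1 call was lost without WT day 5, Per1KO day 0 or 5 or Per2KO day 0 (adjusted p up to 0.0977), and that of Ift172 without WT day 5, Per1KO day 0 or 5 or any Per2KO library (up to 0.177). Thinning to WT depth also ended the Ift172 call (0.103). Against WT, edgeR called 0 of the 12 in either knockout, with 3 and 2 at an unadjusted p under 0.05 in Per1KO and Per2KO and 1 in each by DESeq2. Of all genes, edgeR called 19.3% in Per1KO and 19.9% in Per2KO.

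Other genes reported as Gli targets moved in both directions. Of 11 tested, 2 rose and 3 fell on day 5, near the shares over all genes (23.2% rose and 22.9% fell). Ccnd1, the cyclin that drives entry into the cell cycle, was at 212, 89.9 and 29.2 CPM on days 0, 3 and 5 in WT, 348, 85.4 and 64.6 CPM in Per1KO and 226, 92.8 and 66.3 CPM in Per2KO. It fell by 2.31 (log2; adjusted p = 3.08e-04), and Jag2, a Notch ligand, by 1.77 (adjusted p = 6.77e-05). Bmp4, a secreted signal of the bone morphogenetic protein family, rose by 3.96 ± 0.82 (adjusted p = 0.00615), and these 3 calls were kept without any 1 library, although Bmp4's was lost without the filter on low counts (adjusted p = 0.0558). Foxc2, a forkhead factor, also fell (-1.23 ± 0.19, adjusted p = 0.00164). Bcl2, an inhibitor of cell death, rose by 0.57 ± 0.20 (adjusted p = 0.0462), a call lost without any 1 library other than WT day 0 or day 3 (adjusted p up to 0.219). It was also lost after thinning to WT depth (0.0536) and with only the compared days fitted (0.0516). Mki67, a proliferation marker, was lower on days 3 and 5, as were Hhip, Ccnd1, Jag2 and Foxc2. Bmp4 and Bcl2 went the other way on day 5. Mki67 was at 269, 320 and 215 CPM in the growing WT, Per1KO and Per2KO libraries and at 32.8 to 138 CPM in the 6 differentiating ones. All 7 proliferation markers fell on both days, and the part of cell cycle exit in these results was not tested.

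Against WT, 4 of these 11 targets were lower in each knockout, Igfbp3, Foxf2, Jag2 and Igfbp6, where 10.1% and 10.6% of all genes were lower in Per1KO and Per2KO. Igfbp3, a binding protein of insulin-like growth factors, was at 1.98 to 3.83 CPM in WT and 0.228 to 0.913 CPM in the knockouts, lower by -2.09 ± 0.51 in Per1KO (adjusted p = 0.0267) and -2.78 ± 0.54 in Per2KO (adjusted p = 0.0107). Foxf2, a forkhead transcription factor, was lower by -1.01 ± 0.27 (adjusted p = 0.0369) and -1.15 ± 0.27 (adjusted p = 0.0223). The Igfbp3 calls were lost without WT day 3 or any Per1KO library for Per1KO (adjusted p up to 0.108) and without Per2KO day 3 for Per2KO (0.0524). The Foxf2 calls were lost without WT day 3 or 5, any Per1KO library or Per2KO day 3 for Per1KO (up to 0.151), and without WT or Per2KO on day 3 or 5 for Per2KO (up to 0.100). The Jag2 call in Per1KO (-0.64 ± 0.14, adjusted p = 0.0180) was lost without WT day 5 or Per1KO day 3 or 5 (up to 0.107), while that in Per2KO (-0.91 ± 0.14, adjusted p = 0.00409) was kept without any 1 library. The Igfbp6 calls (-0.41 and -0.43, adjusted p = 0.0419 and 0.0338) were lost without any 1 library other than WT day 5 in Per1KO (up to 0.168) and other than WT day 0 or 5 in Per2KO (up to 0.199). With only the compared genotypes fitted, the Foxf2 and Igfbp6 calls were lost in both knockouts (0.0778 to 0.162), and Jag2's in Per1KO (0.0677). Thinning to WT depth ended the Per1KO calls of Igfbp3 (0.0549) and Foxf2 (0.0581). Foxf2 in Per1KO and both Igfbp6 calls were also lost without the filter (0.0544 to 0.152) and with protein-coding genes only (0.0522 to 0.0640). Of the 10 partners of Cdon and Boc at cell contacts and in their signalling, 1 rose on day 5, where 23.2% of all genes did. This was Cdh2 (N-cadherin), which went from 67.5 to 203 CPM in WT, 95.5 to 230 in Per1KO and 71.9 to 218 in Per2KO. The difference was 1.48 ± 0.12 (log2; adjusted p = 7.75e-05), a call kept without any 1 library. Neo1, a receptor of the same surface complexes, was the 1 gene of the 52 higher in Per2KO (0.64 ± 0.16, adjusted p = 0.0264). It was not called without WT day 3, Per1KO day 5 or any Per2KO library (adjusted p 0.0504 to 0.124), or with only the compared genotypes fitted (0.0790).

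**Figure D4:**
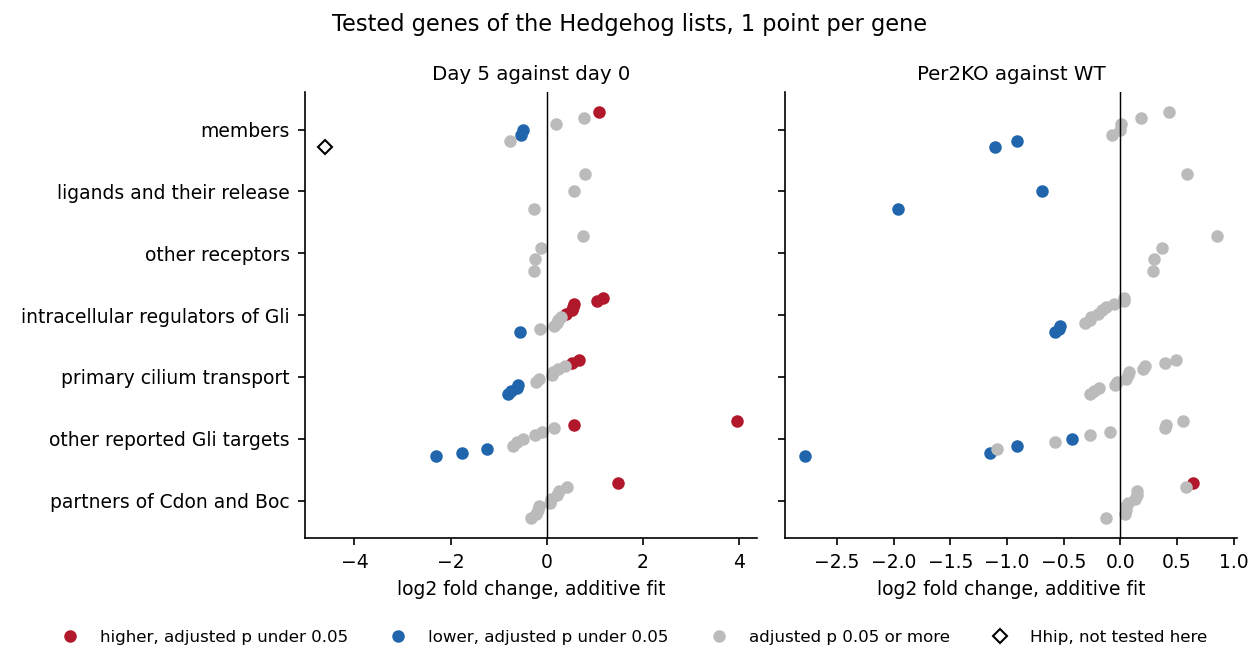
log2 difference from the additive model for each tested gene of the members and the 6 wider lists, on day 5 against day 0 (left) and in Per2KO against WT (right), with 1 point per gene, coloured by the adjusted p. The diamond marks Hhip at -4.61 on day 5, left of all listed genes, as the gene picked for this fall. Boc and Gas1 are the members below 0 that passed in Per2KO.

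The genes most like Hhip over the 9 libraries were found by Pearson's r of log2 CPM (prior count 2) among 9213 tested protein-coding genes that averaged 10 CPM or more. They were Src (0.991), Ints13 (0.989), Odf2, Xrcc5 and Epb41l3 (0.988 each). All 9 points share their depth by genotype and are grouped by day, so these are descriptions. Src, a tyrosine kinase, was at 152 to 163 CPM on day 0 and 64.0 to 83.8 CPM later, a much narrower range than that of Hhip. Of the members, Ptch1 was most like Gmds (0.979) and Slc19a1 (0.976), Smo like Sdcbp (0.992) and Zfp462 (0.982), and Gli3 like Dock1 (0.993) and Epb41l1 (0.975). Boc was most like Tfcp2 (0.984) and Copg2 (0.971), Cdon like Zhx3 (0.980) and Lrp4 (0.973), and Gas1 like Ptn (0.985) and Ncstn (0.983). Hhip itself had an r of 0.89 with Smo, 0.82 with Ptch1, 0.68 with Gli3, -0.11 with Boc, -0.50 with Gas1 and -0.87 with Cdon.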

How the data were processed

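RNA-seq read counts were used for C2C12 cells of 3 populations on days 0, 3 and 5, with 1 library each. Per the labels, poly(A) RNA was purified and prepared with TruSeq chemistry, then read from 1 end. The submitters' processing notes name CASAVA 1.8, HISAT2 2.1.0 and mm10. The counting program, annotation and use of strand are not given in the sources used here. The deposited values are whole-number counts per Ensembl gene by the authors, with no normalization. Symbols matched 47224 of 47729 genes, and the other 505 held at most 0.0328% of a library. Positions, lengths and classes come from GENCODE M21 on GRCm38.

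Genes with at least 1 CPM in 3 libraries were tested with edgeR 4.0.16 (R 4.3.3; TMM, robust quasi-likelihood). The additive model of genotype and day had 4 residual degrees of freedom and the interaction model 3, so a genotype's spread is taken over its days and a day's over the populations, and p-values speak of these populations only. Alternatives used DESeq2 1.42.0. Differences between 2 single libraries carry no p. Named genes were the members, ligands, and per list the up to 2 largest called rises and falls on day 5 and in both knockouts. Disp1, Neo1, Foxc2, Jag2 in the knockouts, Igfbp6, Stk36, Btrc, Prkar1a, Spop and single markers were named in addition, after their values were seen. The members and lists were chosen with earlier results of these data known. Scripts were tested on simulated data.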

Additional observations from a re-analysis of the deposited data

Results flagged for a closer look

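The response of Bmp4 to differentiation differed between the knockouts and WT by 3.62 ± 0.78 (log2, SE) in the interaction test (edgeR, adjusted p = 0.0463). Bmp4 was at 4.52, 3.10 and 20.2 CPM on days 0, 3 and 5 in WT, 0.223, 5.32 and 8.36 CPM in Per1KO and 0.354, 5.80 and 12.5 CPM in Per2KO. The call was lost without Per1KO day 0 or any 1 Per2KO library (adjusted p up to 0.169). The response of Myog, a muscle transcription factor used as reference, differed by 3.14 ± 0.25 (adjusted p = 0.00359), a call kept in each of the 8 fits that leave out 1 library. Myog was at 124, 868 and 1060 CPM in WT, 5.35, 262 and 351 CPM in Per1KO and 2.91, 226 and 271 CPM in Per2KO.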

How the results depend on the processing

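The additive model sets genotypes against each other within days, and days within populations. No further block could be added to its day and genotype terms. Each genotype and day has 1 library, and the labels carry no replicate numbers. Without any 1 library, the number of members called ranged from 0 to 3 on day 3 (3 with all libraries), 2 to 5 on day 5 (3), 1 to 2 in Per1KO (2), 0 to 2 in Per2KO (2), 0 to 0 between the knockouts (0) and 0 to 2 for the difference in response (0), whose term could not be estimated without WT day 0. Other settings that moved these counts by more than 1.5 times are these, and the cause was not tested. Fitting only the libraries compared gave 1 on day 3, 1 in Per1KO and 0 in Per2KO. DESeq2's Wald test gave 5 on day 5 and 1 for the difference in response, and leaving out all 3 WT libraries gave 5 on day 5. Without a filter on low counts there was 1 in Per1KO and 0 in Per2KO, and thinning the knockouts to the lowest WT total, or testing protein-coding genes only (added after seeing the data), gave 1 in Per2KO. Of 630 alternative values of 42 member differences, 519 kept direction and call status, 56 lost the call, 19 gained it and 36 reversed. All 56 losses and 0 of the reversals fell on the 10 called differences. Most kept values were of differences that were not called to begin with. Hhip's differences on days 3 and 5 had no call and count as kept wherever the direction held. DESeq2's size factors changed none of the 42. Reversals outside single-library omissions were Boc on day 3 without WT (0.09), Ptch1 and Cdon in Per2KO without the filter (0.01 and 0.08), Cdon in Per2KO after thinning (0.01) and with protein-coding genes (0.03), Hhip in Per2KO with the compared libraries (0.00) and Hhip between the knockouts after thinning (-0.09). Omitting 1 library moved Boc from -0.33 to 0.21 on day 3 and -0.10 to 0.41 on day 5. In Per1KO it moved Hhip from -0.15 to 0.26, Ptch1 from -0.31 to 0.02 and Cdon from -0.07 to 0.40, and in Per2KO Hhip from -0.21 to 0.19, Ptch1 from -0.24 to 0.09 and Cdon from -0.22 to 0.27. Between the knockouts the ranges were -0.06 to 0.24 for Hhip, -0.16 to 0.02 for Ptch1, -0.25 to 0.17 for Gli3, -0.11 to 0.32 for Cdon and -0.38 to 0.13 for Gas1. For the difference in response they were -0.77 to 0.76 for Hhip, -0.06 to 0.15 for Smo and -0.01 to 0.95 for Boc. Over all genes, counts of calls moved by more than 1.5 times in some fits: on day 3 from 4664 to 3105 with the compared libraries and 7684 without WT, in Per1KO from 2575 to 1391 and in Per2KO from 2652 to 1263 with the compared libraries, to 1601 in Per1KO and 1715 in Per2KO with protein-coding genes, and for the difference in response from 659 to 1464 by DESeq2. Omitting 1 library gave 2160 to 6331 calls on day 3, 3728 to 7431 on day 5, 1154 to 3602 in Per1KO, 1158 to 3738 in Per2KO and 51 to 2201 for the difference in response. Depth limits the WT values of Hhip on days 3 and 5, those of Gli1 in WT and all values of Gli2.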
